A study of Mus musculus with 12 samples.

Results

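The 9 genes described here write, copy or remove methyl groups on cytosine, or help to do so. They were chosen by name from a table of 54537 mouse genes: Dnmt1, Dnmt3a, Dnmt3b, Dnmt3l, Uhrf1, Tet1, Tet2, Tet3 and Trim28. Each was found as 1 row and reached 1 FPKM, the unit of the table, which scales fragments to gene length and library size, in all 12 libraries. Polyadenylated RNA was sequenced from a wild type mouse embryonic stem (ES) cell line, WT, and from a line labelled WT+1343KO-a14, called 1343KO here. The ES cells of day 0 grew on gelatin in medium with serum and LIF (leukaemia inhibitory factor), which holds them undifferentiated. At days 8 and 16 they had grown without it as embryoid bodies, floating aggregates in which ES cells differentiate. Each line and day gave 2 libraries, and no knockout of another RNA was used here. The labels do not say what the number in that name stands for, what the WT+ in the genotype means, or whether replicates were separate cultures. Each genotype is 1 line, so genotype and line cannot be told apart. P-values measure only the spread between libraries, which may be technical.

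In mammals DNA methylation is laid down on unmethylated CpG sites by Dnmt3a and Dnmt3b. Dnmt3l has no catalytic activity of its own and stimulates both. After replication Uhrf1 binds the half-methylated sites and brings Dnmt1, which copies the mark to the new strand. Tet1, Tet2 and Tet3 oxidise the methyl group, the first step of its removal. Trim28 (KAP1) is the corepressor that KRAB zinc finger proteins bring to retroelements and imprinted regions, where DNA methylation is kept. ES cells are known for abundant Dnmt3l, Tet1 and Tet2, and Tet3 is better known from the egg and from differentiated tissue.

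The promoters are shown for their CpG content, since CpG sites are where the methyltransferases and TET enzymes act. A link between CpG content and the changes of these genes was not tested. RefSeq sequences of GRCm38.p6, from 250 bases before to 50 bases after a transcript start, gave 16 windows for the 9 genes. All 9 genes matched, and the median over 32851 windows of 27025 genes was 7 CpG. Dnmt3l lay at or under that median, with 6, 4 and 3 CpG in its 3 windows. Tet1 had 17 CpG in its 1 window, Tet3 22, Trim28 23, Dnmt3b 30 and Tet2 57. Dnmt3a had 46, 47 and 18 in its 3 windows, Dnmt1 had 33, 12 and 2, and Uhrf1 had 12 and 33. Those of Dnmt3b, Dnmt3l and Tet1, the 3 genes with the largest differences between the lines at day 16, and of Tet3, which moved the other way, follow 5′ to 3′ on the gene's strand, with each CG in capitals.
Dnmt3b, chr2:153649199-153649498, plus strand: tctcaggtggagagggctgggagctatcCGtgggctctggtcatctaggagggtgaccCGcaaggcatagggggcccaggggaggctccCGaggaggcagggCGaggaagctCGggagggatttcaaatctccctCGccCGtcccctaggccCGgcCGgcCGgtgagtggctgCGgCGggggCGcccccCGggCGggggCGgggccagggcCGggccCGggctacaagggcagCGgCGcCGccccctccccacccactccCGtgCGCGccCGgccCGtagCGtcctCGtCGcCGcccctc
Dnmt3l, chr10:78042037-78042336, plus strand: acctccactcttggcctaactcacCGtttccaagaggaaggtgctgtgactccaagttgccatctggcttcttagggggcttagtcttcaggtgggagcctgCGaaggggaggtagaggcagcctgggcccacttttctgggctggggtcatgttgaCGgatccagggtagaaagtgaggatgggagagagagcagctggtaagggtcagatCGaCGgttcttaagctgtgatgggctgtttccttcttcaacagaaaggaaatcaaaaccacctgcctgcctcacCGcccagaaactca
Tet1, chr10:62887275-62887574, minus strand: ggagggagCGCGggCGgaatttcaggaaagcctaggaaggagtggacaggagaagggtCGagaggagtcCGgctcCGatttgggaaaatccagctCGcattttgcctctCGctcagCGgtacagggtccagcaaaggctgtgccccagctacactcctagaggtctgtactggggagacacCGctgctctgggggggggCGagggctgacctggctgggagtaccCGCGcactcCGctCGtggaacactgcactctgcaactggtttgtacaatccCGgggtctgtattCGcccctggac
Tet3, chr6:83441629-83441928, minus strand: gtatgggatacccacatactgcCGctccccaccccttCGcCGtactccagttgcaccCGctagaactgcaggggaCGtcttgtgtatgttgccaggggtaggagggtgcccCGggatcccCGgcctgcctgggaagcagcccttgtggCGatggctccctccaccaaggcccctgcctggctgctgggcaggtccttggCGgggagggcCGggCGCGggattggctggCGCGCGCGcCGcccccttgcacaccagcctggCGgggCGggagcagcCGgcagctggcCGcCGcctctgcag
Of all windows, 88.3% had fewer CpG than that of Dnmt3b, 43.6% fewer than this one of Dnmt3l, 68.6% fewer than that of Tet1 and 76.9% fewer than that of Tet3.

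The 2 maintenance genes are shown for 8-letter words that were looked for after the sequences had been seen, on both strands. TTTCGCGC and TTTGGCGC have the letters bound by E2F factors of the cell cycle, and CGCATGCG those of the NRF1 core. None of the 3 words overlaps another in these windows. CGCATGCG was in 1.87% of all windows, and either E2F word was in 0.813%. Both kinds together were in 21 windows, 0.0639% of all, and among these were 1 window of Dnmt1 and 1 of Uhrf1. The Uhrf1 window has TTTCGCGC 185 bases and CGCATGCG 145 bases before the start. The Dnmt1 window with both kinds, chr9:20952574-20952873, and the one printed for Dnmt1 belong to different starts, both inside the annotated gene. The printed one lies further upstream and has CGCATGCG 30 bases after it. The words are in capitals. A match is only a match of letters.
Dnmt1, chr9:20952930-20953229, minus strand: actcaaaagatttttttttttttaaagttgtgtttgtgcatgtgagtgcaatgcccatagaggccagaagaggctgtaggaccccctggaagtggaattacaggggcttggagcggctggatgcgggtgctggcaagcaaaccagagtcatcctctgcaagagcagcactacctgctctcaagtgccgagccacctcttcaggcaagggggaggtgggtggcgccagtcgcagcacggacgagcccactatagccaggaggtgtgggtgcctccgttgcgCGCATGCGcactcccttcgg
Uhrf1, chr17:56304063-56304362, plus strand: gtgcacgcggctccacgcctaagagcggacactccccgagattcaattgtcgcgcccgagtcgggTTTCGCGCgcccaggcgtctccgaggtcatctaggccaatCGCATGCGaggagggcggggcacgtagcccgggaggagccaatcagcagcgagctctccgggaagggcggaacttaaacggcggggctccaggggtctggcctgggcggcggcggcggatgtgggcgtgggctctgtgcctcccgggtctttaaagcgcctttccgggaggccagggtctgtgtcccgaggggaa

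The summed FPKM was 444355 to 517962 per library. The libraries held about 4842000 to 8035000 fragments, estimated from the steps between low FPKM values, and replicates correlated at 0.970 to 0.975 across genes, which are not independent replicates. The fewest estimated fragments behind a value of a member were about 32.0, for Dnmt3l in a WT day 16 library. Snhg3, the host gene of the SNORA73 snoRNAs that the series title names, read 61.1 and 47.0 FPKM in WT at day 0, 1.57 and 0 in 1343KO at day 0, and was listed at or near 0 in 1343KO later. All samples are labelled as ES cells. A list of 8 pluripotency genes held Pou5f1, Sox2, Nanog, Zfp42, Esrrb, Klf4, Tfcp2l1 and Tbx3. Their summed level was 1463 to 1464 FPKM in WT at day 0 and 66.2 to 72.8 at day 16. So the WT libraries of day 16 carried the markers of their label at a much lower level. All 8 genes were still at 1 FPKM or more. In 1343KO the same sum was 1604 to 1648 FPKM at day 0 and 912 to 926 at day 16. Pou5f1 alone gave 762 and 761 FPKM of it in WT at day 0, and 419 and 397 in 1343KO at day 16. The sum by itself does not tell a naive state from another pluripotent one. Genes on chromosome 8 stood lower in 1343KO at day 0, with a median log2 difference of -0.42 over 214 genes of at least 20 FPKM on average, against 0.00 elsewhere. None of the 9 genes lies there.

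**Figure D1:**
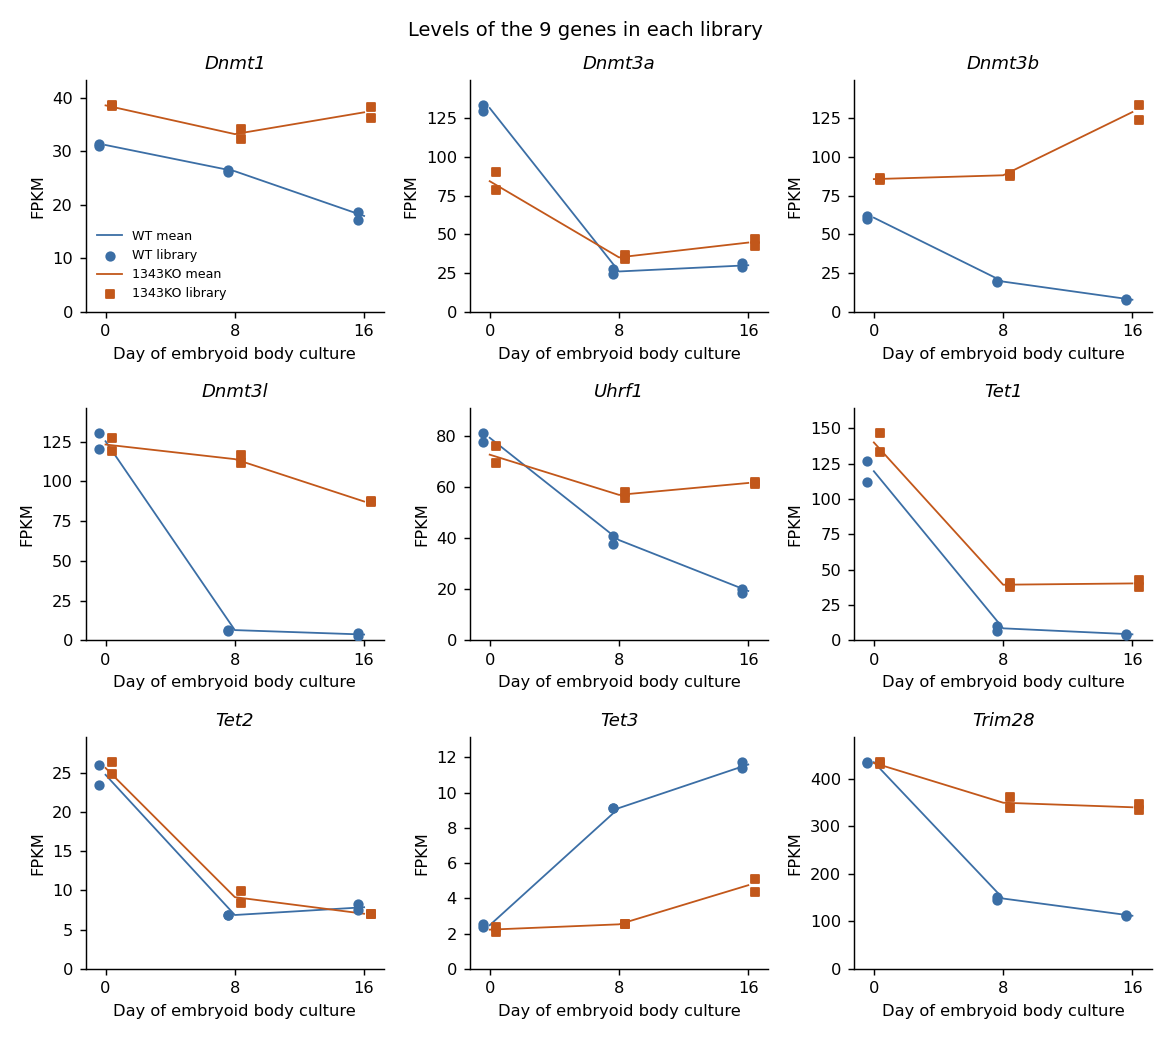
Levels of the 9 genes. Each panel plots FPKM (own linear scale from 0) against the day of embryoid body culture, with each library as a point (WT circles, 1343KO squares, set slightly apart) and the mean of 2 libraries as a line. At day 16 the 1343KO points lie above the WT points for 7 genes, below for Tet3 (4.38 and 5.11 against 11.4 and 11.8 FPKM) and below for Tet2 by a small gap (7.0 and 7.03 against 7.48 and 8.21 FPKM).

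Over 16 days of WT culture, 8 of the 9 genes fell and Tet3 rose. The lines differed little as ES cells and widely as embryoid bodies, where most writers stayed high in 1343KO. At day 0, 1343KO was higher in 1 gene (Dnmt3b) and lower in 1 (Dnmt3a), where 1.59% of all 16289 genes tested were higher and 2.12% lower (3.71% in all) in limma at an adjusted p under 0.05. At day 8 all 9 genes passed, 8 higher and Tet3 lower, against 23.3% of all genes higher and 19.6% lower (42.8% in all). At day 16 the count was 8, with 7 higher and Tet3 lower, against 28.5% and 24.1% (52.6% in all). The median difference of the 9 genes was -0.01, 0.53 and 1.60 at days 0, 8 and 16 on the log2(FPKM + 1) scale, beside 0.00, 0.06 and 0.07 over all genes. In these bulk libraries, fewer cells of a type and less RNA per cell cannot be told apart.

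Within WT, all 9 genes passed from day 0 to day 8, 1 higher and 8 lower, where 26.8% of all genes rose and 24.5% fell (51.3% in all). From day 0 to day 16 it was again 1 higher and 8 lower, against 32.7% and 28.5% (61.2% in all). From day 8 to day 16 a further 6 fell and 0 rose, against 13.5% and 14.1% of all genes (27.6% in all). Within 1343KO, 5 fell and 0 rose to day 8, against 8.51% and 15.0% of all genes (23.5% in all). By day 16, 5 were lower and 2 higher than at day 0, against 8.60% and 18.2% (26.8% in all). Only Dnmt3b passed from day 8 to day 16 in 1343KO, upward, where 0.602% of all genes rose and 0.203% fell (0.804% in all). The comparisons between lines and those over time share libraries, so they are not independent of each other.

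The change itself differed between the lines for 7 genes up to day 8 (6 higher in 1343KO, 1 lower) against 28.3% of all genes, 15.6% higher and 12.7% lower. Up to day 16 it differed for 8 genes (7 higher, 1 lower) against 40.0% of all genes, 21.7% higher and 18.2% lower. From day 8 to day 16 it differed for 5 genes, all higher in 1343KO, against 16.7% of all genes, 8.50% higher and 8.20% lower. Among all genes, the share of calls that were higher depended on the scaling. It was 54.3% between the lines at day 8 and 41.0% with TPM scaling, and 55.0% and 40.8% for the change up to day 8. In 1343KO it was 63.8% up to day 8, with 52.1% by median-of-ratios and 53.5% by TPM scaling, and 67.9% up to day 16, with 51.0% by median-of-ratios scaling. No member that passed changed direction in these. Dnmt1, which did not pass for the difference in the change up to day 8, changed by -0.30 in 1343KO and -0.14 in WT with TPM scaling. That turned the sign of its small difference.

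**Figure D2:**
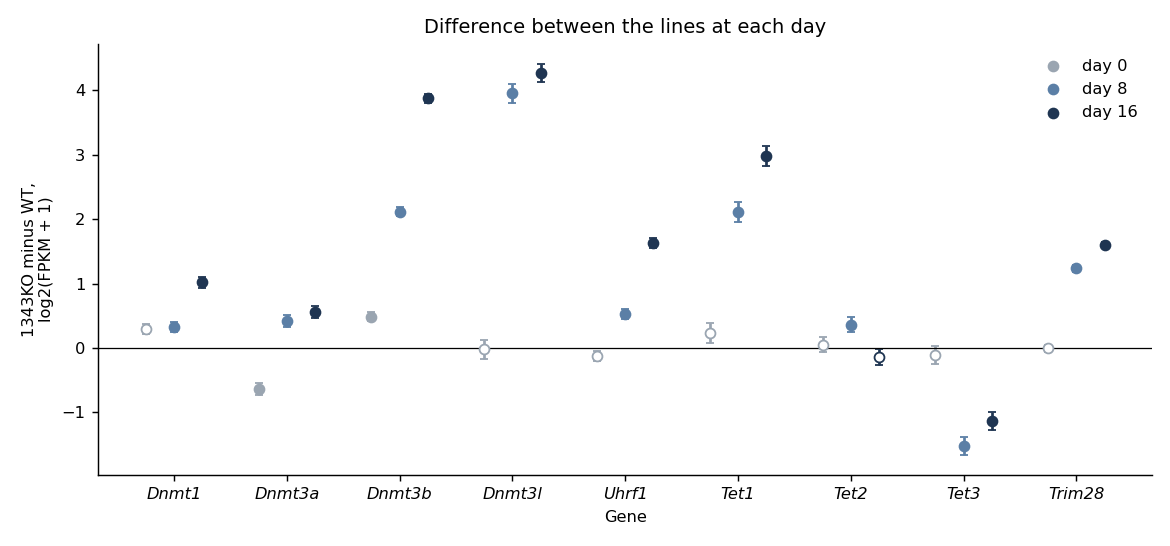
Difference between the lines. The y axis is the log2(FPKM + 1) difference, 1343KO minus WT, for each gene at days 0, 8 and 16 from limma. Filled points passed at an adjusted p under 0.05, open points did not, and bars are 1 SE. Dnmt3l and Dnmt3b reach 4.27 and 3.88 at day 16, Tet3 lies at -1.52 and -1.14 at days 8 and 16, and Tet2 stays within 0.36 of 0.

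Dnmt3b (ENSMUSG00000027478, chromosome 2, 153649450 to 153687730, plus strand) encodes the de novo methyltransferase typical of the early embryo. It read 59.6 and 61.8 FPKM in WT at day 0, 19.6 and 19.4 at day 8 and 7.57 and 8.08 at day 16. Its level in 1343KO was 86.0 and 85.1 FPKM at day 0, 88.8 and 87.3 at day 8, and 124 and 134 at day 16. No ranges overlapped between groups, and the lowest 1343KO library was above the highest WT library. The WT level fell by 2.81 ± 0.07 (SE, log2) from day 0 to day 16 (adjusted p = 4.24e-09), while the 1343KO level rose by 0.58 ± 0.07 (adjusted p = 0.000368). Tet3 was the other member that rose in 1343KO over that time. The line means differed by a factor of 1.41 as ES cells, 4.51 at day 8 and 16.5 at day 16. The log2 differences were 0.49 ± 0.07 (adjusted p = 0.00653), 2.12 ± 0.07 (adjusted p = 1.08e-07) and 3.88 ± 0.07 (adjusted p = 3.43e-09). The rise in 1343KO from day 8 to day 16, 0.54 ± 0.07 (adjusted p = 0.0104), was lost without either day 8 library of 1343KO (adjusted p = 0.0618 and 0.0962) or without replicate 2 of day 16 (0.0857). With the 4 day 0 libraries fitted alone, neither Dnmt3b (adjusted p = 0.159) nor Dnmt3a (0.185) passed at day 0.

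Dnmt3l (ENSMUSG00000000730, chromosome 10, 78041947 to 78063622, plus strand), the stimulating partner without activity of its own, had the largest difference between the lines among the 9 genes at days 8 and 16. It read 130 and 120 FPKM in WT at day 0, 6.79 and 6.07 at day 8, and 4.48 and 2.82 at day 16. The 1343KO libraries read 127 and 119 FPKM at day 0, 117 and 111 at day 8, and 87.9 and 86.8 at day 16. The ranges of the lines overlapped at day 0 and were far apart later. The WT mean at day 16 was 2.91% of that at day 0, and the 1343KO mean 70.9%. On the log2 scale the WT level fell by 4.78 ± 0.15 (SE; adjusted p = 1.33e-08). The 1343KO level fell by 0.49 ± 0.15 (adjusted p = 0.0346), a call that was lost without any 1 of the 4 libraries in it (adjusted p = 0.0864 to 0.141). The line means differed 17.7-fold at day 8 and 23.9-fold at day 16, with log2 differences of 3.95 ± 0.15 (adjusted p = 1.79e-07) and 4.27 ± 0.15 (adjusted p = 5.49e-08). At day 0 the difference was -0.02 ± 0.15 (adjusted p = 0.977). The gene overlaps Aire on the other strand, and whether the counting used strand is not given in the sources used here. Aire read 1.16 to 6.02 FPKM in WT and in 1343KO at day 0, and 23.7 to 30.5 in the later 1343KO libraries, and reads of the overlap cannot be told apart.

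Dnmt3a (ENSMUSG00000020661, chromosome 12, 3806007 to 3914443, plus strand), the de novo enzyme that most somatic cells keep, had the reverse order of the lines before and after differentiation. It read 129 and 134 FPKM in WT at day 0, 24.7 and 27.5 at day 8, and 28.9 and 31.3 at day 16. The 1343KO levels were 78.6 and 90.3 FPKM at day 0, 36.5 and 33.9 at day 8, and 42.5 and 47.1 at day 16. So 1343KO was lower as ES cells and higher as embryoid bodies, with no overlap at any day. The differences were -0.64 ± 0.10 (SE, log2; adjusted p = 0.00918) at day 0, 0.42 ± 0.10 (adjusted p = 0.00699) at day 8 and 0.56 ± 0.10 (adjusted p = 0.00105) at day 16. The day 0 call was lost without WT replicate 2 (adjusted p = 0.0728) or 1343KO replicate 1 (0.0547), and the day 8 call without WT replicate 1 (0.0543) and with TPM scaling (0.0957). In both lines the gene fell from day 0 to day 8, by 2.29 ± 0.10 in WT (adjusted p = 1.56e-07) and by 1.24 ± 0.10 in 1343KO (adjusted p = 3.85e-05). These falls differed from each other by 1.06 ± 0.14 (adjusted p = 0.000632). From day 8 to day 16 neither line passed (adjusted p = 0.168 in WT and 0.182 in 1343KO). Dnmt3a has 18 annotated transcripts, and a level per gene does not separate its long and short forms.

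As a share of the summed FPKM of the 3 catalytic enzymes, Dnmt3b made up 27.1% and 27.2% in WT at day 0, 27.8% and 26.4% at day 8, and 14.1% and 13.9% at day 16. Its share in 1343KO was 42.3% and 39.8% at day 0, 56.3% and 56.2% at day 8, and 60.5% and 61.6% at day 16. Dnmt3a was the largest of the 3 in WT at days 0 and 16 (53.8% to 59.0%) and Dnmt3b in 1343KO at days 8 and 16. The ratio of Dnmt3b to Dnmt3a went from 0.46 in both WT libraries at day 0 to 0.26 in both at day 16. In 1343KO it went from 1.10 and 0.94 to 2.92 and 2.84. The summed level of the 3 enzymes was 220 and 227 FPKM in WT at day 0 and 53.6 and 58.1 at day 16, and 203 and 214 FPKM in 1343KO at day 0 and 205 and 217 at day 16. The totals of 1343KO at days 0 and 16 overlapped, and so did its Dnmt1 shares, while its Dnmt3a and Dnmt3b shares did not.

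Uhrf1 (ENSMUSG00000001228, chromosome 17, 56303321 to 56323486, plus strand), which brings Dnmt1 to replicated DNA, read 77.4 and 81.1 FPKM in WT at day 0, 37.6 and 40.9 at day 8, and 18.7 and 19.9 at day 16. The levels in 1343KO were 76.0 and 69.3 FPKM at day 0, 58.1 and 55.7 at day 8, and 61.9 and 61.2 at day 16. The WT level went down at each step, and the 1343KO libraries stayed between 55.7 and 76.0 FPKM. The WT fall to day 16 was 1.98 ± 0.08 (SE, log2; adjusted p = 5.38e-08), and the 1343KO change was -0.23 ± 0.08 (adjusted p = 0.0539). The lines differed by -0.13 ± 0.08 at day 0 (adjusted p = 0.477), 0.53 ± 0.08 at day 8 (adjusted p = 0.000554) and 1.62 ± 0.08 at day 16 (adjusted p = 3.39e-07). The 1343KO change to day 8, -0.35 ± 0.08 (adjusted p = 0.0122), was lost without day 0 replicate 1 or day 8 replicate 2 of that line (0.0754 and 0.0696). Its change to day 16 passed with median-of-ratios scaling (0.00533), TPM scaling (0.0262) and the filter at a mean of 5 FPKM (0.0483).

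Dnmt1 (ENSMUSG00000004099, chromosome 9, 20907209 to 20959888, minus strand), the maintenance methyltransferase, read 31.0 and 31.4 FPKM in WT at day 0, 26.1 and 26.5 at day 8, and 17.2 and 18.7 at day 16. Readings in 1343KO were 38.8 and 38.5 FPKM at day 0, 32.4 and 34.1 at day 8, and 38.4 and 36.3 at day 16. Each 1343KO library was above each WT library. The WT level fell by 0.77 ± 0.08 (SE, log2; adjusted p = 2.25e-05) to day 16, and the 1343KO change was -0.05 ± 0.08 (adjusted p = 0.7). The difference between the lines was 0.30 ± 0.08 at day 0 and did not pass (adjusted p = 0.0774, and 0.047 with no filter on low values). It was 0.33 ± 0.08 at day 8 (adjusted p = 0.00821) and 1.02 ± 0.08 at day 16 (adjusted p = 5.65e-06). The day 8 call was lost with TPM scaling (0.14, adjusted p = 0.226) and without 1343KO replicate 2 (0.0515). The WT fall to day 8, 0.24 ± 0.08 (adjusted p = 0.0294), was lost without any 1 of its 4 libraries (0.0786 to 0.107) and with TPM scaling (0.182). The ratio of Uhrf1 to Dnmt1 went from 2.50 and 2.58 to 1.09 and 1.07 in WT between days 0 and 16, and from 1.96 and 1.80 to 1.61 and 1.69 in 1343KO.

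Genes of dividing cells also differed between these groups. Of 14 such genes, all 14 fell in WT from day 0 to day 16, against 28.5% of all tested genes. The summed level of the 14 went from 1377 to 1401 FPKM down to 476 to 496. In 1343KO 1 rose, 2 fell and 11 did not pass, where 18.2% of all tested genes rose and 8.60% fell. The sums in that line were 1300 to 1312 FPKM at day 0 and 1174 to 1175 at day 16. Between the lines, all 14 were higher in 1343KO at day 16, against 28.5% of all tested genes. Day 8 was not so even, with 7 higher, 2 lower and 5 that did not pass, beside 23.3% of all tested genes higher and 19.6% lower. The sums at day 8 were 906 to 921 FPKM in WT and 1127 to 1157 in 1343KO. In WT 9 of the 14 fell to day 8, against 24.5% of all tested genes. Mki67, a protein of cycling cells and 1 of the 14, rose there from 32.0 and 35.3 FPKM to 51.2 and 54.5. In 1343KO at day 8 Mki67 read 28.1 and 29.4 FPKM, below WT. The part of this in the levels of Dnmt1 and Uhrf1 was not tested.

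Tet1 (ENSMUSG00000047146, chromosome 10, 62804570 to 62908996, minus strand), the main TET enzyme of ES cells, read 127 and 112 FPKM in WT at day 0, 6.83 and 10.1 at day 8, and 3.97 and 4.51 at day 16. The 1343KO values were 147 and 133 FPKM at day 0, 38.0 and 40.7 at day 8, and 38.1 and 42.4 at day 16. Both lines went down, and 1343KO stopped at a higher level, with overlapping ranges at days 8 and 16. The fall to day 16 was 4.52 ± 0.16 (SE, log2; adjusted p = 2.33e-08) in WT and 1.77 ± 0.16 (adjusted p = 6.44e-05) in 1343KO, and the difference between these was 2.75 ± 0.22 (adjusted p = 1.8e-05). The line means differed 1.17-fold at day 0, 4.64-fold at day 8 and 9.49-fold at day 16. The log2 differences were 0.23 ± 0.16 (adjusted p = 0.531), 2.11 ± 0.16 (adjusted p = 8.11e-06) and 2.98 ± 0.16 (adjusted p = 5.23e-07).

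Tet3 (ENSMUSG00000034832, chromosome 6, 83362373 to 83459084, minus strand), the TET enzyme of the egg and of many differentiated cells, went the other way. It read 2.39 and 2.56 FPKM in WT at day 0, 9.12 and 9.14 at day 8, and 11.8 and 11.4 at day 16. Its 1343KO levels were 2.09 and 2.35 FPKM at day 0, 2.53 and 2.52 at day 8, and 5.11 and 4.38 at day 16. At day 8 the 1343KO level lay within the range of the WT ES cells, and at day 16 it was still under that of WT at day 8. WT rose by 1.86 ± 0.14 (SE, log2; adjusted p = 3.16e-06) to day 16 and 1343KO by 0.83 ± 0.14 (adjusted p = 0.00262). Up to day 8 WT rose by 1.54 ± 0.14 (adjusted p = 1.76e-05), and the 1343KO change was 0.13 ± 0.14 (adjusted p = 0.565). Between the lines the difference was -0.11 ± 0.14 (adjusted p = 0.785) at day 0, -1.52 ± 0.14 (adjusted p = 3.38e-05) at day 8 and -1.14 ± 0.14 (adjusted p = 0.000125) at day 16.

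Tet2 (ENSMUSG00000040943, chromosome 3, 133463679 to 133545139, minus strand) fell in both lines. It read 23.4 and 26.0 FPKM in WT at day 0, 6.92 and 6.80 at day 8, and 8.21 and 7.48 at day 16. Values in 1343KO were 24.8 and 26.4 FPKM at day 0, 8.34 and 9.92 at day 8, and 7.0 and 7.03 at day 16. To day 16 it fell by 1.54 ± 0.12 (SE, log2; adjusted p = 3.45e-06) in WT and by 1.73 ± 0.12 (adjusted p = 1.54e-05) in 1343KO, and these changes differed by -0.19 ± 0.17 (adjusted p = 0.405). A p that misses the threshold does not show that the lines changed alike. The lines differed by 0.36 ± 0.12 at day 8 (adjusted p = 0.0346), a call that was lost without 3 of the 4 libraries in turn (WT replicate 1, 0.0971, WT replicate 2, 0.116, 1343KO replicate 2, 0.196) and under median-of-ratios (0.0782) and TPM scaling (0.245). At day 16 the difference was -0.14 ± 0.12 (adjusted p = 0.352).

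The makeup of the TET family moved with these changes. Tet1 made up 83.1% and 79.7% of the summed TET level in WT at day 0, 29.9% and 38.9% at day 8, and 16.6% and 19.3% at day 16. Its part in 1343KO was 84.5% and 82.3% at day 0, 77.8% and 76.6% at day 8, and 75.9% and 78.8% at day 16. Tet3 went from 1.56% and 1.82% to 49.1% and 48.8% in WT, and from 1.21% and 1.45% to 10.2% and 8.14% in 1343KO. The Tet2 share went from 15.3% and 18.5% to 34.3% and 31.9% in WT, and was 14.3% and 16.3% at day 0 and 13.9% and 13.1% at the end in 1343KO. The summed level was 153 and 141 FPKM in WT at day 0 and about 24.0 and 23.4 at day 16, and 174 and 162 in 1343KO at day 0 and 50.2 and 53.8 at day 16. The total was lower at day 16 in both lines, while Tet1 stayed the most abundant TET transcript in 1343KO and Tet3 took that place in WT.

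**Figure D3:**
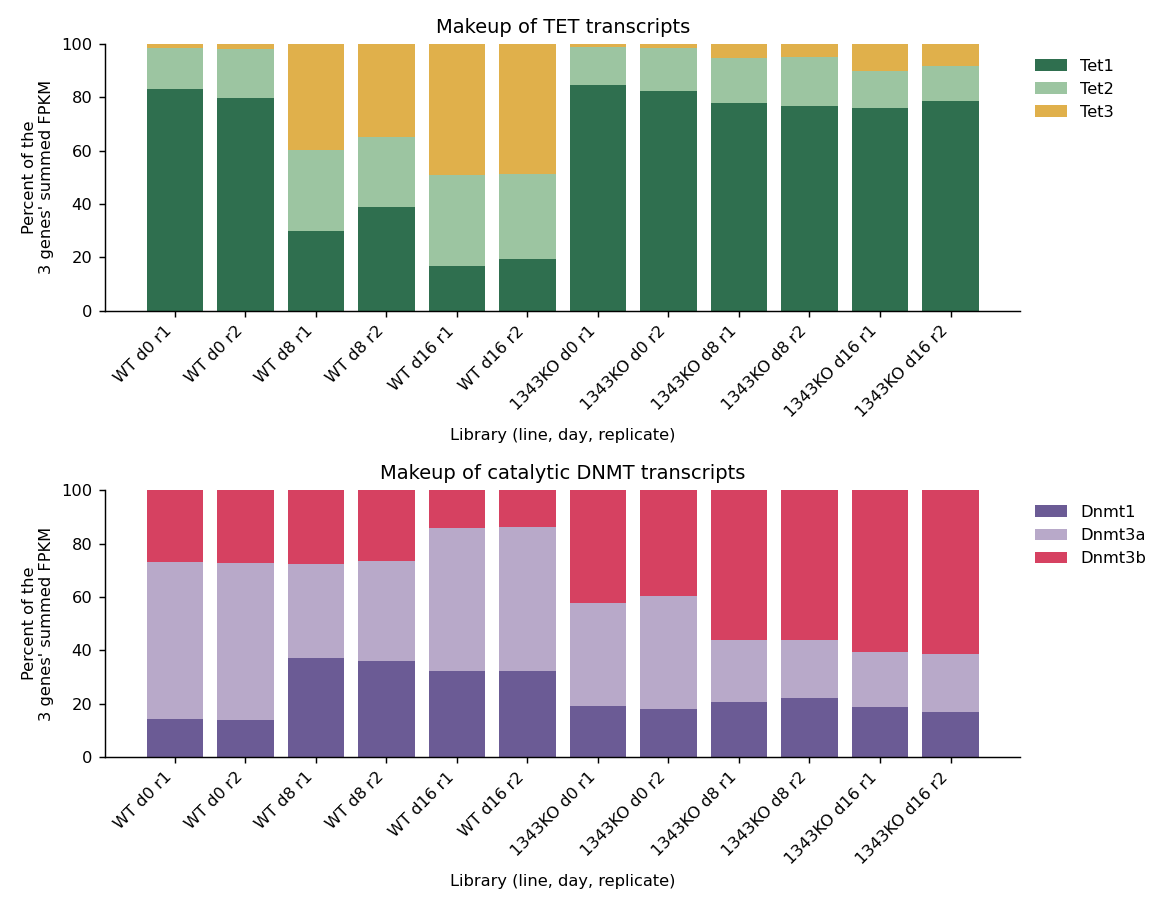
Makeup of the TET and DNMT families. Each bar is 1 library (line, day and replicate), and the y axis is the percent of the 3 genes' summed FPKM, above for Tet1, Tet2 and Tet3 and below for Dnmt1, Dnmt3a and Dnmt3b. Tet1 goes from 79.7% or more at day 0 to 19.3% or less at day 16 in WT and stays at 75.9% or more in 1343KO, where Dnmt3b reaches 60.5% and 61.6% of the DNMT sum.

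Trim28 (ENSMUSG00000005566, chromosome 7, 12999114 to 13031035, plus strand) was the most abundant of the 9 genes in each library by FPKM. It read 436 and 434 FPKM in WT at day 0, 145 and 151 at day 8, and 112 and 111 at day 16. The 1343KO libraries had 436 and 431 FPKM at day 0, 361 and 339 at day 8, and 333 and 347 at day 16. The day 0 ranges overlapped, and so did those of 1343KO at days 8 and 16. WT fell by 1.95 ± 0.05 (SE, log2; adjusted p = 5.94e-09) to day 16 and 1343KO by 0.35 ± 0.05 (adjusted p = 0.00115). The lines differed by -0.01 ± 0.05 at day 0 (adjusted p = 0.991), 1.24 ± 0.05 at day 8 (adjusted p = 2.82e-07) and 1.60 ± 0.05 at day 16 (adjusted p = 4.15e-08). Trim28 overlaps Zbtb45 on the other strand, which read 4.12 to 24.4 FPKM over the libraries.

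With the 6 groups of a gene ordered by level, the ranges of neighbouring groups overlapped in 5 of the 9 genes. They did so between the lines at day 0 for Dnmt3l, Tet2 and Trim28, between 1343KO at days 8 and 16 for Tet1 and Trim28, and between 1343KO at day 8 and WT at day 0 for Tet3. Dnmt1, Dnmt3a, Dnmt3b and Uhrf1 had no such overlap. Markers of other cells differed between the same groups. At day 8 the summed level of 5 red blood cell genes was 1043 to 1166 FPKM in WT and 2.31 to 5.35 in 1343KO, that of 6 yolk sac endoderm genes 2104 to 2153 and 115 to 129, and that of 6 fibroblast genes 217 to 239.8 and 31.7 to 35.6. All members of these 3 lists passed as lower in 1343KO, against 19.6% of all tested genes. The sum of the 8 pluripotency genes was 122 to 123 FPKM in WT and 1045 to 1064 in 1343KO at that day. At day 16 the summed level of 6 fibroblast genes was 3790 to 3913 FPKM in WT and 44.5 to 49.1 in 1343KO, and that of 6 yolk sac endoderm genes 11478 to 11528 and 79.3 to 91.4. For 7 macrophage genes the sums were 214 to 224 FPKM and 8.70 to 8.87. All fibroblast, yolk sac and macrophage genes passed as lower in 1343KO, against 24.1% of all tested genes. The red blood cell sum went the other way at day 16, at 9.66 to 18.9 FPKM in WT and 20.4 to 27.8 in 1343KO. That of 5 neural genes was 17.1 and 38.1 to 39.0, and that of 5 germ cell genes 5.08 to 7.09 and 50.1 to 56.8. Sums of 4 heart muscle genes overlapped, at 19.7 to 29.7 and 18.8 to 19.9. For 4 endothelial genes they were 77.0 to 78.4 and 33.6. Of the 8 pluripotency genes, 6 were higher in 1343KO at day 16, and of 6 formative epiblast genes (a state between naive and primed) 5 were. Of all tested genes, 28.5% were higher. The formative sum was 29.6 to 35.3 FPKM in WT and 192 to 200 in 1343KO. The part of these markers in the members' differences was not tested.

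Proteins that work with the 9 genes were followed in 8 lists, and their counts at day 16 stand beside 28.5% of all tested genes higher in 1343KO and 24.1% lower. The calls at day 0 in these lists were all lost when the 4 libraries of that day were fitted alone, where no gene passed in limma (2489 had an unadjusted p under 0.05). At day 16, 8 of 10 maintenance partners were higher in 1343KO and 0 lower, with a median log2 difference of 1.42, where all tested genes had 0.07. Hells, a chromatin remodeller needed for methylation of repeats, read 98.7 ± 7.20 FPKM in 1343KO and 17.2 ± 0.678 in WT (SD, n = 2), a log2 difference of 2.45. Its recruiter Cdca7 differed by 1.76, and Usp7, the deubiquitinase that binds Dnmt1 and Uhrf1, by 1.58. Uhrf2, the paralog of Uhrf1, differed by -0.10 (adjusted p = 0.506). Dppa3 (Stella), which keeps Uhrf1 off chromatin, was the 1 maintenance partner that passed at day 0, at 36.8 ± 1.94 FPKM in 1343KO against 9.94 ± 1.87 in WT. Its level was 167 ± 11.1 and 121 ± 2.28 FPKM in 1343KO at days 8 and 16, and 5.02 ± 2.26 and 1.85 ± 1.44 in WT.

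Among 14 Trim28 partners, 11 were higher at day 16 and 0 lower (median 0.80). These included Cbx1 (HP1 beta, 1.59), Morc3 (1.36) and Atrx (1.22), which bind or pack silent chromatin. Cbx1 and Atrx were higher at day 0 too, by 0.39 ± 0.07 (SE; adjusted p = 0.0201) and 0.66 ± 0.10 (adjusted p = 0.00907). In WT 13 of the 14 fell to day 16, led by Zfp57, the zinc finger protein of imprinted regions, with a change of -2.18. In 1343KO 6 fell and 1 rose, and Zfp57 changed by -1.70. Its mean in 1343KO was 209 FPKM at day 0 and 63.6 at day 16.

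Regulators of de novo methylation gave 6 of 11 higher and 0 lower at day 16 (median 0.71). Dppa4 and Dppa2, a pair of chromatin proteins of pluripotent cells, differed by 4.62 and 4.0, and Pcgf6, a Polycomb subunit at germ line genes, by 1.22. The S-adenosylmethionine cycle supplies the methyl donor. Of 12 genes listed with it, not all of which supply the donor, 10 were higher (median 1.09). Mthfd1 of the folate cycle differed by 2.07, Srm, which makes spermidine and not the donor, by 1.53, and Ahcy, which clears the spent donor, by 1.23.

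The share that was higher lay nearer to that of all genes in the lists of reading and removal, and the difference between lists was not tested. Of 10 methyl-CpG readers 2 were higher at day 16 (Mbd3, 0.89, and Mbd4, 0.69) and 2 lower (Zbtb4, -2.09, and Mbd2, -1.14), with a median of -0.08. Of 13 genes of base excision and demethylation 5 were higher and 1 lower (median 0.28), among them Parp1 (1.82), Apex1 (1.41) and Gadd45a (1.32) above and the cytidine deaminase Apobec1 (-2.32) below. Of 10 TET partners and 2-oxoglutarate enzymes 4 were higher and 1 lower (median 0.18). D2hgdh, which removes the TET inhibitor 2-hydroxyglutarate, differed by 1.05, Sin3a by 1.02, Hcfc1 by 0.83 and Idh1 by -0.48. At day 0 these lists gave 1 call, Polb, lower by 0.90 ± 0.20 (adjusted p = 0.0393) and placed on chromosome 8, the chromosome whose genes stood lower in 1343KO.

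Germ line genes whose promoters are silenced by methylation in somatic cells gave 10 of 14 higher and 1 lower at day 16 (median 1.72). Hormad1 (meiotic chromosome axis) read 7.08 ± 0.690 FPKM in 1343KO and 0.196 ± 0.0974 in WT, Tex19.1 24.0 ± 2.22 and 3.95 ± 0.851, and Ddx4 4.15 ± 0.138 and 0.281 ± 0.0733 (SD, n = 2). Rhox5 was lower, at 111 ± 11.2 against 177 ± 16.2. In WT from day 0 to day 16, 9 of the 14 fell and Rhox5 rose. In 1343KO 4 fell and 2 rose. At day 0 Hormad1 and Sycp1, another meiotic gene, were higher in 1343KO by 0.96 ± 0.19 (SE; adjusted p = 0.0289) and 1.39 ± 0.31 (adjusted p = 0.0412). DNA methylation itself was not measured. The remaining call at day 0 in the 8 lists was Ehmt2, a histone methyltransferase, lower by 0.39 ± 0.09 (adjusted p = 0.0483).

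**Figure D4:**
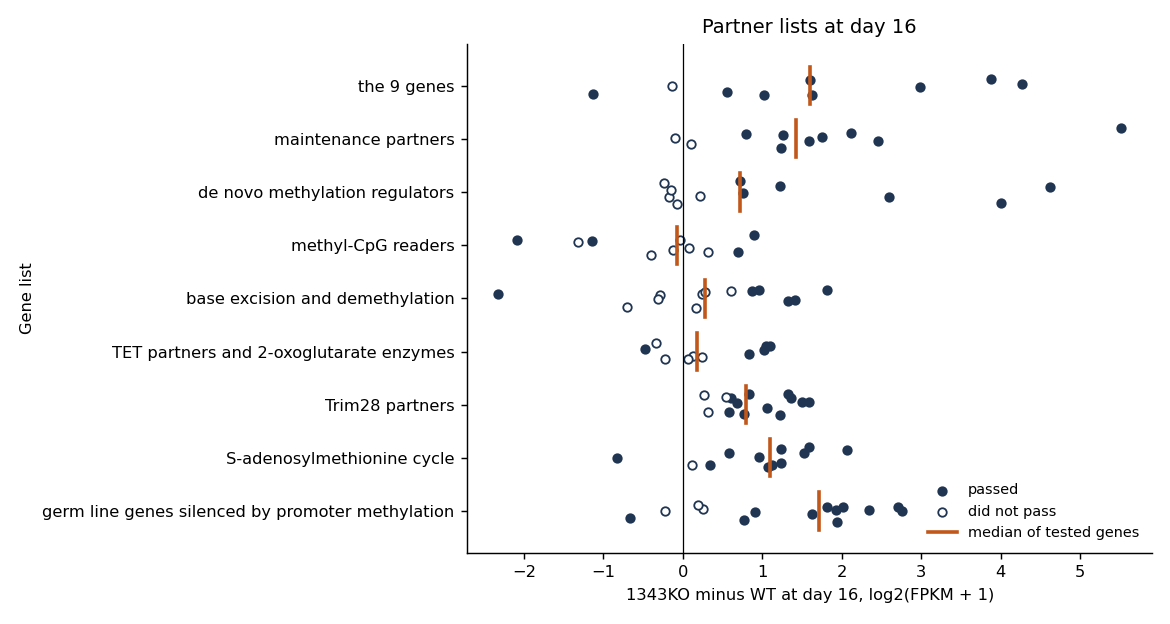
Partner lists at day 16. Each point is 1 tested gene, placed by its log2(FPKM + 1) difference, 1343KO minus WT, in rows for the 9 genes and the 8 lists; filled points passed in limma, open points did not, and orange bars are medians. Medians lie at 1.42 for maintenance partners and 1.72 for germ line genes, and at -0.08 for methyl-CpG readers and 0.18 for TET partners.

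Over time, 28.5% of all tested genes fell from day 0 to day 16 in WT and 8.60% in 1343KO. In the lists other than the germ line genes, the counts that fell in WT were 8 of 10 maintenance partners, 8 of 11 de novo regulators, 13 of 14 Trim28 partners, 9 of 12 genes of the S-adenosylmethionine cycle, 1 of 10 readers, 6 of 13 excision genes and 4 of 10 TET partners. In 1343KO the same counts were 1, 2, 6, 4, 0, 1 and 1. Rises made up 32.7% of all tested genes in WT and 18.2% in 1343KO. Readers rose in WT in 5 cases, led by Zbtb4 (2.83) and Mbd2 (1.88), and in 0 cases in 1343KO. Among TET partners 4 rose in WT and 6 in 1343KO, led in both by Idh2, Cxxc4 and Ogt, and among excision genes 2 rose in WT and 4 in 1343KO. The differences of these counts between the lines were not tested.

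Each member's course over the 12 libraries was set against 8857 other genes, by the root mean square difference of log2(FPKM + 1) after centring each gene on its mean. This is a description over libraries that share lines and days. Genes were not scaled to a common range, so distances can be larger for genes that change more. Among the members, Uhrf1 and Trim28 were closest (0.24), then Dnmt3a and Tet2 (0.33) and Dnmt1 and Uhrf1 (0.37). Dnmt3l and Tet3 were farthest apart (2.79), and Dnmt3a and Dnmt3b differed by 1.2. The genes nearest to Dnmt3l were Utf1 (0.24), Dppa5a (0.24) and Pou5f1 (0.25). Nearest to Trim28 were Nol9 (0.07), Pa2g4 (0.08) and Mphosph10 (0.09), and to Uhrf1 Gnl3 (0.08), Ppp1r8 (0.09) and Stip1 (0.09). Those nearest to Dnmt1 were Dnaja1 (0.09), Sfpq (0.10) and Hook1 (0.10), and to Tet3 Usp3 (0.08), Armcx2 (0.15) and Cacfd1 (0.15). Dnmt3b had no gene as close, with Cecr2 (0.29), Elavl2 (0.30) and Zfp459 (0.32), nor did Tet1, with Rpl10l (0.28), Zfp987 (0.31) and Rex2 (0.34). Dnmt3a was nearest to F2rl1 (0.24), Sntb2 (0.25) and Irf2bpl (0.27), and Tet2 to Lrch4 (0.20), Rarg (0.25) and Prkar2a (0.25). With a pseudocount of 0.1 the nearest gene changed for Dnmt1 (Sfpq), Dnmt3l (Pou5f1), Tet1 (Zfp985) and Trim28 (Pa2g4).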

How the data were processed

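The authors deposited FPKM values per gene, 1 column per library, for WT and WT+1343KO-a14 at days 0, 8 and 16 (2 libraries each, grouped by the titles and the genotype and time labels). Per the submitters' processing notes Cufflinks 2.1.1 and the GRCm38 (mm10) genome were used, and the labels' protocols give poly(A) selection. Aligner, annotation and use of strand: not given in the sources used here. A gene's FPKM depends on how shared reads were split with overlapping genes and on the RNA taken by other genes. Start positions were raised by 1 so that coordinates count from 1, and 98.7% of the matched genes then had the coordinates of GENCODE M21. An exact 0 can be a failed estimate, since 17 of 6620 well expressed genes (median 10 FPKM or more) had one somewhere.

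Tests covered the 16289 genes that reached 1 FPKM in 2 or more libraries. The scale was log2(FPKM + 1), which understates changes of low genes, and the tool limma 3.58.1 in R 4.3.3. The model had 6 group means over 12 libraries, a trend in the variance and 6 residual degrees of freedom. The 12 contrasts were two-sided, and p-values were adjusted by Benjamini-Hochberg within each contrast over all genes tested. Calls needed an adjusted p under 0.05, and the fit was tested on simulated data. An exact permutation test of 2 against 2 libraries cannot go below p = 0.333, so calls rest on the spread pooled over groups. Depth was estimated from the steps of low values, assuming 200 nt fragments, and was used only as a description. In the 12 libraries 85.8% to 88.5% of the values used lay closer than 5% to a whole count. The depth was set from the same low values, so this is no independent check of it.

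The members and lists were chosen with earlier results of these data known. The text names the 9 members, up to 3 called genes per list and direction with the smallest p, and the 3 genes nearest to each member. The nearest genes were sought among tested genes averaging 5 FPKM or more, leaving out unnamed models and small RNAs. Uhrf2 was added after its value was seen. One gene that this rule would name is not reported here. Each result was recomputed with a pseudocount of 0.1, without the filter, with a filter at a mean of 5 FPKM, with TPM or median-of-ratios scaling, with a replicate block, with robust variances, on each contrast's libraries alone and without each library. Tables were made in Python 3.11.15 with numpy 2.4.6 and pandas 2.3.3, and figures with matplotlib 3.10.9. The word search in the promoters and the chromosome 8 median were added after seeing the data.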

Additional observations from a re-analysis of the deposited data

Results flagged for a closer look

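The change over time differed between the lines, by a test of the difference itself in limma (1343KO change minus WT change, log2, p adjusted over all genes tested). These values bear on the same levels that the report gives, so they are no independent support.

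From day 0 to day 8 the WT change was lower than that of 1343KO for 6 genes. Dnmt3l led with 3.98 (adjusted p = 4.54e-06), followed by Tet1 with 1.88 (0.000333), Dnmt3b with 1.63 (9.58e-06), Trim28 with 1.24 (8.37e-06), Dnmt3a with 1.06 (0.000632) and Uhrf1 with 0.65 (0.00241). For Tet3, which rose in WT, the difference was -1.41 (0.000979). Dnmt1, at 0.03 (0.883), and Tet2, at 0.31 (0.203), did not pass.

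From day 0 to day 16 the difference was 4.29 for Dnmt3l (adjusted p = 1.26e-06), 3.39 for Dnmt3b (1.38e-07), 2.75 for Tet1 (1.8e-05), 1.75 for Uhrf1 (5.09e-06), 1.6 for Trim28 (9.48e-07), 1.19 for Dnmt3a (0.000158) and 0.72 for Dnmt1 (0.000847). It was -1.03 for Tet3 (0.00314).

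From day 8 to day 16 the lines went on diverging for Dnmt3b, at 1.76 (adjusted p = 1.96e-05), Uhrf1, at 1.1 (0.000275), Dnmt1, at 0.69 (0.00329), and Trim28, at 0.36 (0.00931). The value for Tet1 was 0.87 (0.027), a call lost with no filter (0.0543), with its 8 libraries fitted alone (0.0639) and without 5 of its 8 libraries in turn (0.0519 to 0.0866), namely WT day 8 replicate 2, WT day 16 replicate 1, both of 1343KO at day 8 and 1343KO day 16 replicate 2. Dnmt3l, at 0.32 (0.349), passed only without WT day 16 replicate 1 (0.0226), and Dnmt3a (0.568), Tet2 (0.0741) and Tet3 (0.235) did not pass.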

How the results depend on the processing

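Of the members' values recomputed under the alternatives, 2110 stayed on their side of the threshold, 43 lost a call and 7 gained one. Among values with a call, 0 reversed direction. A change of direction without a call was not tallied, and neither were the numbers of members called. In many of these values the library left out was not part of the contrast. There the estimate could not change, only the pooled spread, so the tally overstates how far the results held. The number of members called fell from 2 to 0 between the lines at day 0 when the 4 libraries were fitted alone (3 members had an unadjusted p under 0.05), and was 1 to 2 with each library left out. It was 3 in place of 5 for 1343KO from day 0 to day 8 with its libraries alone, where Trim28 (adjusted p = 0.0596) and Uhrf1 (0.0748) were lost. From day 8 to day 16 in 1343KO it was 0 in place of 1 alone, and 0 to 1 with each library left out. With their libraries alone, Tet2 between the lines at day 8 (0.132), Dnmt3l (0.144) and Tet1 (0.101) in WT from day 8 to day 16, Tet3 in 1343KO to day 16 (0.0683) and the difference of the Tet1 changes from day 8 to day 16 (0.0639) were also lost. Dnmt3l in 1343KO to day 16 was lost with a pseudocount of 0.1 (0.0641) and with no filter (0.0718). Dnmt1 in 1343KO to day 8 passed with median-of-ratios (0.0215) and TPM scaling (0.0292). The causes were not tested, beyond the fewer libraries of these fits.

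Over all genes, 604 passed between the lines at day 0, and 0 with the 4 libraries alone (2489 at an unadjusted p under 0.05), and 203 to 335 without 1 of them. From day 8 to day 16 the count was 131 in 1343KO, with 0 alone (1826 unadjusted) and 36 to 56 without 1 of its libraries, and 4495 in WT, with 2968 alone. In 1343KO 3828 passed to day 8 (1427 alone, 2483 without day 0 replicate 2, 2480 without day 8 replicate 2) and 4368 to day 16 (2246 alone, 2906 without day 16 replicate 2). TPM scaling moved the median of all genes by -0.15 between the lines at day 8 and by -0.14 for the difference of the changes to day 8. Median-of-ratios scaling moved it by -0.11 in 1343KO to day 16 and for the difference of the changes to day 16.

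The labels give the groups the same replicate numbers, without saying that they pair samples. The replicate differences of the 15 pairs of groups correlated at -0.0358 to 0.0360, so no replicate effect shared by groups was seen over all genes. This cannot tell whether the numbers stand for a shared culture, day or batch. With the replicate block the members called were 2, 9 and 8 between the lines at days 0, 8 and 16, as without it, and the counts of the other 9 contrasts were the same too.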
